A study of Drosophila melanogaster with 12 samples.

Results

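Piwi piRNAs from aubRK ovaries were compared with Piwi piRNAs from aubWT ovaries, transposon by transposon and separately for the sense and the antisense orientation. Of the 12 libraries of the series, 3 are Piwi immunoprecipitations: 2 from aubRK and 1 from aubWT. They list 126 transposons in both orientations, 252 entries in all, of which 243 had a mean of at least 10 CPM over the 3 libraries, where CPM are read copies per 1000000 copies on transposons in a library. In 137 of the 243 both aubRK libraries differed from aubWT in the same direction and by more than they differed from each other. These 137 are called kept.

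aubRK flies carry an HA-tagged aub transgene in which the N-terminal arginines of Aubergine (Aub) that receive symmetric dimethylation are replaced by lysines. aubWT flies carry the same tagged transgene with the wild-type sequence. Both genotypes are heteroallelic for the aub null alleles QC42/HN2, so that endogenous Aub is missing in both, and express the UAS-3xHA:aub transgene under the germline driver nos-Gal4. The ovaries came from flies aged 2 to 5 days, were dissected and pooled, and Piwi was precipitated from the pooled lysate. A library is therefore a pool of animals, and nothing in the labels says whether the aubRK pair came from separate pools.

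Piwi, Aub and Ago3 are the PIWI proteins of the fly ovary. Aub and Ago3 act in the cytoplasm of germ cells, where they cut transposon RNAs in turn and so amplify piRNAs of both orientations, a cycle called ping-pong. Piwi acts in the nucleus, where its piRNAs guide silencing of transposon transcription, and it is loaded without amplification of its own, in germ cells and also in the follicle cells that surround them. Germline Piwi receives piRNAs whose production can begin at transcripts cut by the ping-pong proteins. The comparison thus asks whether the arginines of Aub matter for the transposons that Piwi piRNAs represent.

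The aubRK libraries held 47217032 and 1338017 read copies on transposons, and the aubWT library held 1992468. A count of 3 reads corresponds to 0.0635 and 2.24 CPM in the aubRK libraries and to 1.51 CPM in aubWT. aubRK library 1 was made with an adaptor without a random barcode and held 5.57 read copies per distinct entry, whereas aubRK library 2 and the aubWT library carried the barcode and held the same number of copies and entries on every transposon. aubRK library 2 and aubWT are thus the pair with the same adaptor and similar depth, and values are given for each aubRK library. The files hold transposons alone, so aub itself and genes that mark cell types were not examined.

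The label Piwi was checked against the class of transposons that the authors call soma dominant, whose piRNAs are made mainly in follicle cells. These transposons took 5.95 and 6.15% of the reads in Piwi aubRK and 4.93% in Piwi aubWT. In Aub they took 0.603% in aubRK and 0.307% in aubWT, in Ago3 4.77% in aubRK and 0.483% in aubWT. The Ago3 aubRK library was close to Piwi in composition. Over the 243 entries its median absolute log2 difference was 0.16 from Piwi aubRK library 1, 0.30 from Piwi aubRK library 2 and 0.49 from Piwi aubWT. Both Piwi aubRK libraries were 0.23 apart and the Ago3 aubRK and aubWT libraries were 0.89 apart. Like Piwi aubRK library 1, the Ago3 aubRK library held more copies than entries, at 6.15 copies per entry.

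Of the 243 entries tested, 137 were kept (56.4%), 68 of them higher in aubRK (28.0%) and 69 lower (28.4%). The rule alone says only that the aubRK pair was closer together than either was to aubWT. In antisense 79 of 121 entries were kept (65.3%), of which 40 were higher (33.1%) and 39 lower (32.2%). In sense 58 of 122 were kept (47.5%), of which 28 were higher (23.0%) and 30 lower (24.6%). The aubRK libraries also lay closer together in antisense, with a median difference of 0.18 on the log2 scale, than in sense, with 0.29. Of the 106 entries not kept, 38 had opposite signs in the aubRK libraries and 68 had the same sign within their difference.

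The changes were mostly small. Changes are differences of log2(CPM + 1), which understates the change of low entries, and unless stated otherwise the value is the mean of both aubRK libraries over aubWT. Kept entries that were higher had changes of 0.04 to 3.52 with a median of 0.61. Kept entries that were lower had changes of −2.06 to −0.08 with a median of −0.71. The median of all 243 was −0.01. Over 2-fold were 20 higher (8.23%) and 19 lower (7.82%), and 18 (7.41%) and 13 (5.35%) of these were also kept. Under TMM normalization the counts over 2-fold were 15 higher and 25 lower. The kept entries that were higher took 48.9 and 48.2% of all reads in the aubRK libraries and 34.0% in aubWT. The kept entries that were lower took 25.3 and 26.1% in the aubRK libraries and 40.3% in aubWT. Both sets were chosen by their direction in these same libraries, so the direction of these differences follows from the choice.

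edgeR's quasi-likelihood test with Benjamini-Hochberg adjustment over all 243 entries called 20 (8.23%) at an adjusted p under 0.05, 8 higher (3.29%) and 12 lower (4.94%), and 79 had an unadjusted p under 0.05. All 20 were among the kept entries. The test and the rule both set the change against the spread of the same aubRK pair, so this overlap is no separate support. The test rests on 1 residual degree of freedom, from the aubRK pair, and assumes that the lone aubWT library varies like that pair; its p-values measure only the spread between these libraries, which may be technical. With TMM normalization it called 16 higher and 42 lower. How often an entry was kept went with its abundance: 10 of 39 entries between 10 and 100 CPM (25.6%), 38 of 83 between 100 and 1000 CPM (45.8%) and 89 of 121 from 1000 CPM upward (73.6%). The median difference between the aubRK libraries in these ranges was 0.81, 0.31 and 0.14, and edgeR called 0, 2 and 18 entries. In the lowest range 1 entry had an unadjusted p under 0.05 and DESeq2 called 0.

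**Figure D1:**
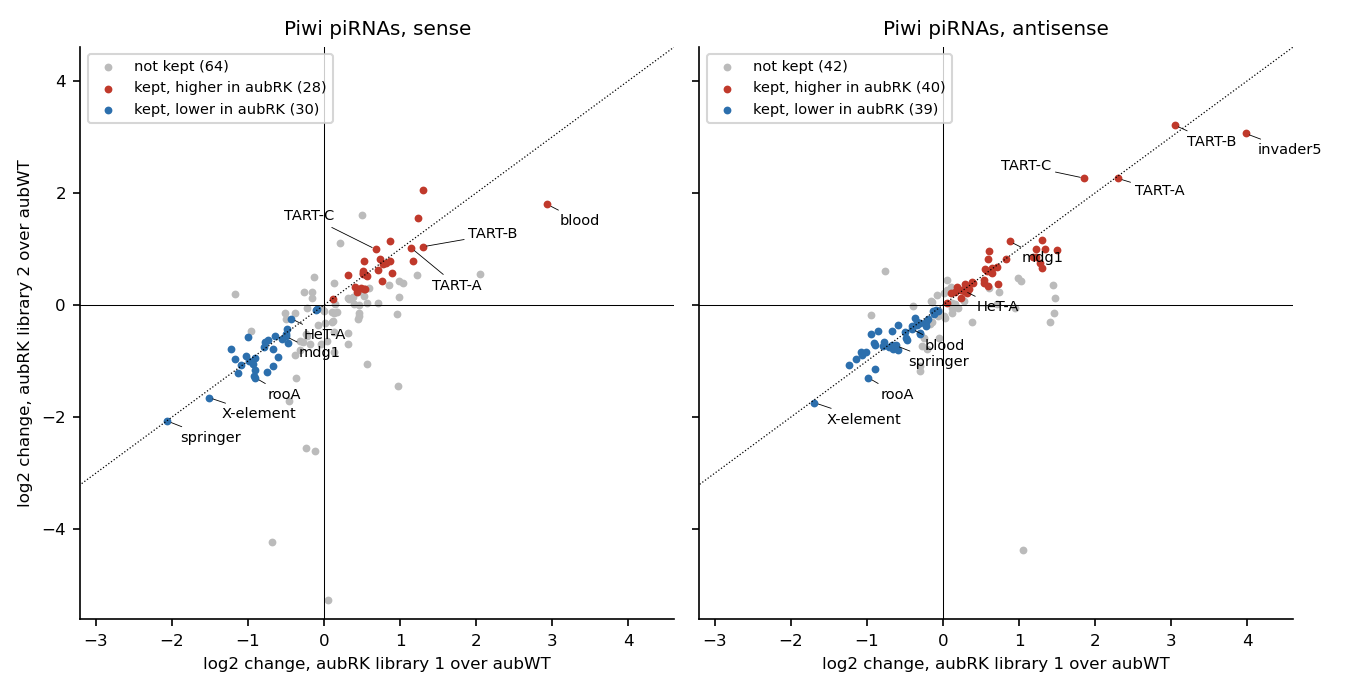
Change of each aubRK library over aubWT for 122 sense and 121 antisense entries. The x axis is the log2 change, of CPM + 1, of aubRK library 1 and the y axis that of aubRK library 2, red points are kept and higher in aubRK, blue points are kept and lower, grey points are not kept, and the dotted line marks equal changes. Antisense entries lie closer to the line than sense entries, the TART elements lie far out at the upper right and X-element at the lower left.

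Telomeric retrotransposons held the largest called increases. HeT-A, TAHRE and TART are the non-LTR elements that insert at Drosophila chromosome ends and maintain them in place of telomerase. The files list TART as TART-A, TART-B and TART-C, which share the identifier FBgn0004904, and reads that match more than 1 of them equally well may count for each, so the 3 are not independent measurements. All 5 telomeric entries, of which 3 are the TART entries, were kept and higher in antisense, where 33.1% of all entries were, with a median change of 2.06 against 0.04 over all antisense entries, and in sense 3 were kept and higher and 2 kept and lower, against 23.0% and 24.6% of all sense entries.

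TART-A antisense piRNAs measured 9375 and 9096 CPM in the aubRK libraries and 1903 CPM in the aubWT library. The aubRK pair was almost identical, and the change was 2.28 ± 0.03 on the log2 scale (SD, n = 2; adjusted p by edgeR = 0.014). The SD of a change, here and below, is the spread of the aubRK pair, whose libraries differ in adaptor. It holds no error of the single aubWT library. TART-B antisense piRNAs measured 632 and 708 CPM in aubRK and 75.8 CPM in aubWT, a change of 3.12 ± 0.12 (SD, n = 2; adjusted p by edgeR = 0.030). TART-C antisense piRNAs measured 343 and 454 CPM in aubRK and 93.9 CPM in aubWT, a change of 2.06 that edgeR did not call (adjusted p = 0.050). In all of them both aubRK libraries were several times above aubWT.

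TART sense piRNAs were also higher, by less. TART-A sense piRNAs measured 3915 and 3584 CPM in aubRK and 1770 CPM in aubWT, a change of 1.08 ± 0.09 (SD, n = 2; adjusted p by edgeR = 0.044). TART-B sense piRNAs measured 289 and 242 CPM in aubRK and 117 CPM in aubWT, and TART-C sense piRNAs 187 and 232 CPM in aubRK and 116 CPM in aubWT. Both were kept, with changes of 1.17 and 0.84, and neither was called by edgeR. With antisense higher by more than sense, the sense share of TART-A was 29.5 and 28.3% in aubRK and 48.2% in aubWT.

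HeT-A and TAHRE differed from TART in that their sense piRNAs were lower. HeT-A (FBgn0004141) is the most abundant of the telomeric elements here. Its sense piRNAs measured 12505 and 14242 CPM in aubRK and 16860 CPM in aubWT, a change of −0.34, and its antisense piRNAs 9580 and 9457 CPM in aubRK and 7920 CPM in aubWT, a change of 0.27. TAHRE (FBgn0069343) sense piRNAs measured 3005 and 3249 CPM in aubRK and 5123 CPM in aubWT, a change of −0.71, and its antisense piRNAs 2486 and 2676 CPM in aubRK and 2302 CPM in aubWT, a change of 0.16. All 4 entries were kept, with adjusted p-values by edgeR of 0.050 for TAHRE sense and 0.17 to 0.50 for the others. The antisense change of TAHRE exceeded the difference between the aubRK libraries by only 0.005.

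Summed over both orientations, telomeric piRNAs were 4.23 and 4.39% of the aubRK libraries and 3.63% of the aubWT library. HeT-A made up the largest part of the sum. The sense share was 56.6 and 60.1% in aubRK and 68.0% in aubWT for HeT-A, and 54.7 and 54.8% in aubRK and 69.0% in aubWT for TAHRE. In every telomeric element the sense share was thus lower in both aubRK libraries than in aubWT.

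**Figure D2:**
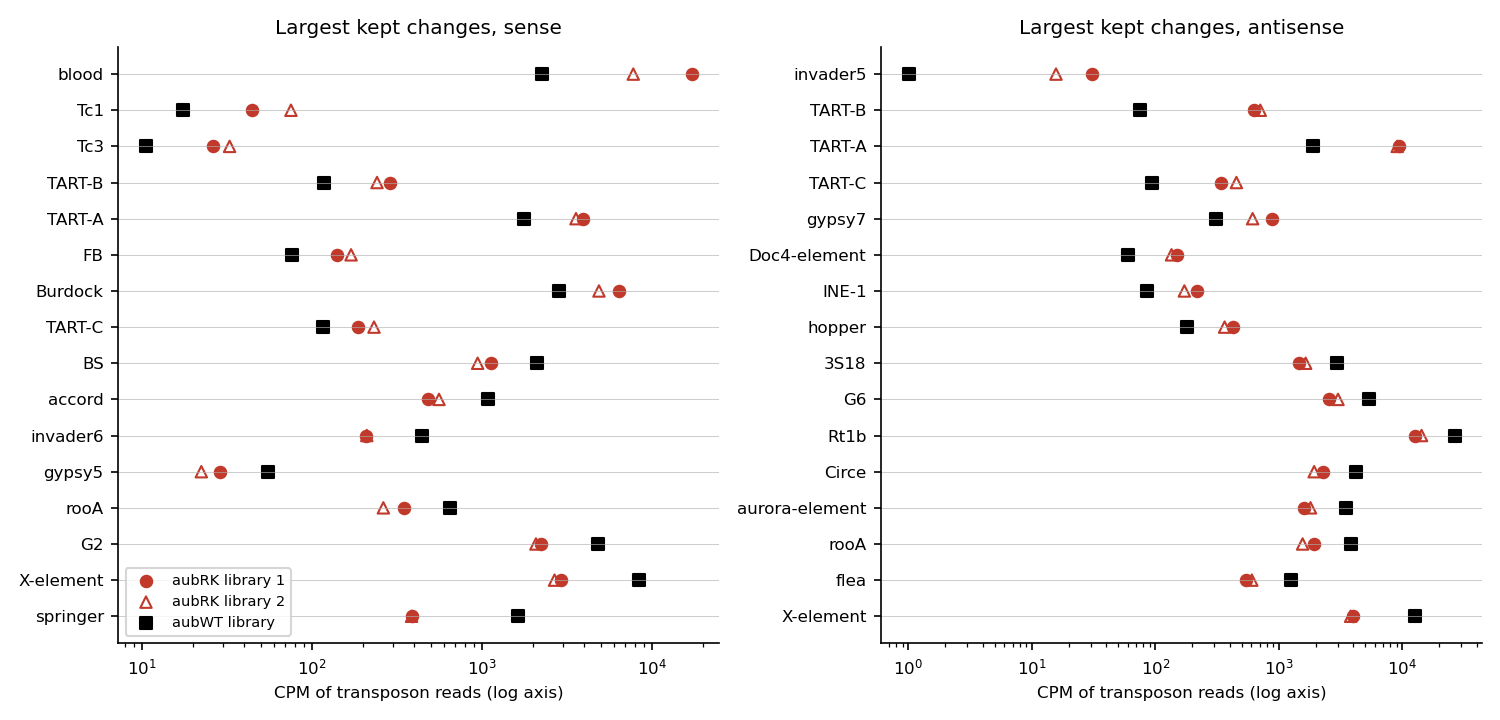
Read abundance of the kept transposons with the 8 largest increases and the 8 largest decreases in each orientation. The x axis is CPM of transposon reads on a log scale, filled red circles are aubRK library 1, open red triangles aubRK library 2 and black squares the aubWT library. The aubRK symbols lie together and away from the square, except for blood sense, Tc1 sense and invader5 antisense, where the aubRK libraries are themselves apart.

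The largest decreases were in both LTR and non-LTR elements. X-element (FBgn0042231) is a LINE of the jockey clade, that is, a retrotransposon without terminal repeats. X-element antisense piRNAs measured 3956 and 3816 CPM in aubRK and 12765 CPM in aubWT, a change of −1.72 ± 0.04 (SD, n = 2; adjusted p by edgeR = 0.014). Its sense piRNAs measured 2945 and 2681 CPM in aubRK and 8415 CPM in aubWT, a change of −1.58 ± 0.10 (SD, n = 2; adjusted p by edgeR = 0.025). The fall was similar in both orientations, so that the sense share stayed near its aubWT value, at 42.7 and 41.3% in aubRK and 39.7% in aubWT.

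R1 and R2 elements are LINEs that insert into the genes of ribosomal RNA. R1A1-element (FBgn0003908), the fly R1 element, lost the largest part of the library of all kept entries. In antisense it measured 31235 and 35393 CPM in aubRK and 58014 CPM in aubWT, a change of −0.80 (adjusted p by edgeR = 0.044) and a difference of −2.47 points of the library. Its sense piRNAs measured 13409 and 13258 CPM in aubRK and 18923 CPM in aubWT, a change of −0.51 that edgeR did not call (adjusted p = 0.050). R2-element was kept and lower in antisense with a change of −0.27, and was not kept in sense. R1-2 was kept with a change of −0.08 in sense and was not kept in antisense. Of the 6 entries edgeR called 1, R1A1-element antisense. Together these elements, the rDNA group, took 4.56 and 4.96% of the aubRK libraries and 7.80% of the aubWT library. Counting identical reads once changes aubRK library 1 alone of the Piwi libraries. It moved the median of all entries from −0.07 to 0.44 in sense and from 0.04 to 0.28 in antisense. In that setting the median of the group turned from −0.08 to 0.87 in sense and from −0.56 to 0.25 in antisense. R1A1-element stayed lower at −0.38 and −0.86.

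The 3 Rt1 elements are LINEs listed as Rt1a, Rt1b and Rt1c. Rt1b (FBgn0042682) antisense piRNAs measured 12693 and 14311 CPM in aubRK and 26552 CPM in aubWT, and its sense piRNAs 6082 and 6569 CPM in aubRK and 12386 CPM in aubWT. The changes were −0.98 and −0.97, each with an adjusted p by edgeR of 0.034. Rt1a (FBgn0041728) antisense piRNAs measured 10378 and 10130 CPM in aubRK and 16544 CPM in aubWT, and its sense piRNAs 5217 and 5083 CPM in aubRK and 9824 CPM in aubWT. Rt1a was called lower in both orientations by edgeR (adjusted p = 0.044 and 0.034). Rt1c was less abundant and was kept and lower in antisense alone, with a change of −0.35. All Rt1 piRNAs together took 3.52 and 3.70% of the aubRK libraries and 6.63% of the aubWT library, and the group medians stayed negative under every alternative tried.

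The remaining LINEs did not move as 1 group. In the jockey clade, which also holds F-element and Doc, 3 of 11 sense entries were kept and higher and 6 kept and lower, against 23.0% and 24.6% of all sense entries. In antisense 4 of 11 were kept in each direction, near the 33.1% and 32.2% of all antisense entries. F-element (FBgn0000652) antisense piRNAs measured 33396 and 34058 CPM in aubRK and 22365 CPM in aubWT, a change of 0.59 (adjusted p by edgeR = 0.044). Doc antisense piRNAs measured 19606 and 18927 CPM in aubRK and 12636 CPM in aubWT, a change of 0.61 (adjusted p by edgeR = 0.049). F-element, Doc and jockey2 were thus kept and higher in both orientations, whereas X-element, BS, Doc2-element and jockey were kept and lower in both. BS sense piRNAs measured 1128 and 946 CPM in aubRK and 2118 CPM in aubWT, and Doc4-element antisense piRNAs 149 and 135 CPM in aubRK and 60.2 CPM in aubWT.

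Elements of the G group, also LINEs, were mixed, with 1 of 7 kept and higher and 3 kept and lower in sense, against 23.0% and 24.6% of all sense entries, and 0 kept and higher and 3 of 7 kept and lower in antisense, against 33.1% and 32.2% of all antisense entries. G2 sense piRNAs measured 2218 and 2083 CPM in aubRK and 4839 CPM in aubWT, a change of −1.17 (adjusted p by edgeR = 0.034). G6 antisense piRNAs measured 2537 and 3015 CPM in aubRK and 5360 CPM in aubWT, a change of −0.95 that was kept and not called. G-element, G2 and G6, the members kept and lower, were also the most abundant, and the group as a whole took 2.22 and 2.23% of the aubRK libraries and 3.40% of the aubWT library. The group medians in the aubRK libraries were 0.31 and −0.50 in sense, with opposite signs, and −0.34 and −0.06 in antisense, so no direction is given for the group in sense. With identical reads counted once, the median of the mean changes was positive in both orientations, as was that of all entries.

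I-element (FBgn0001249) is the LINE behind 1 form of hybrid dysgenesis, the sterility that follows when paternal transposons meet eggs without matching maternal piRNAs. Its sense piRNAs measured 1641 and 1635 CPM in aubRK and 3261 CPM in aubWT, a change of −0.99 (adjusted p by edgeR = 0.044). Its antisense piRNAs were at 2066 and 2014 CPM in aubRK and 2242 CPM in aubWT, kept and lower with a change of −0.14 that edgeR did not call. P-element, the DNA transposon of another form of dysgenesis, had only 259 and 21 sense reads in aubRK and 27 in aubWT and was not kept, and its antisense piRNAs did not pass the filter. hobo was not kept in either orientation.

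**Figure D3:**
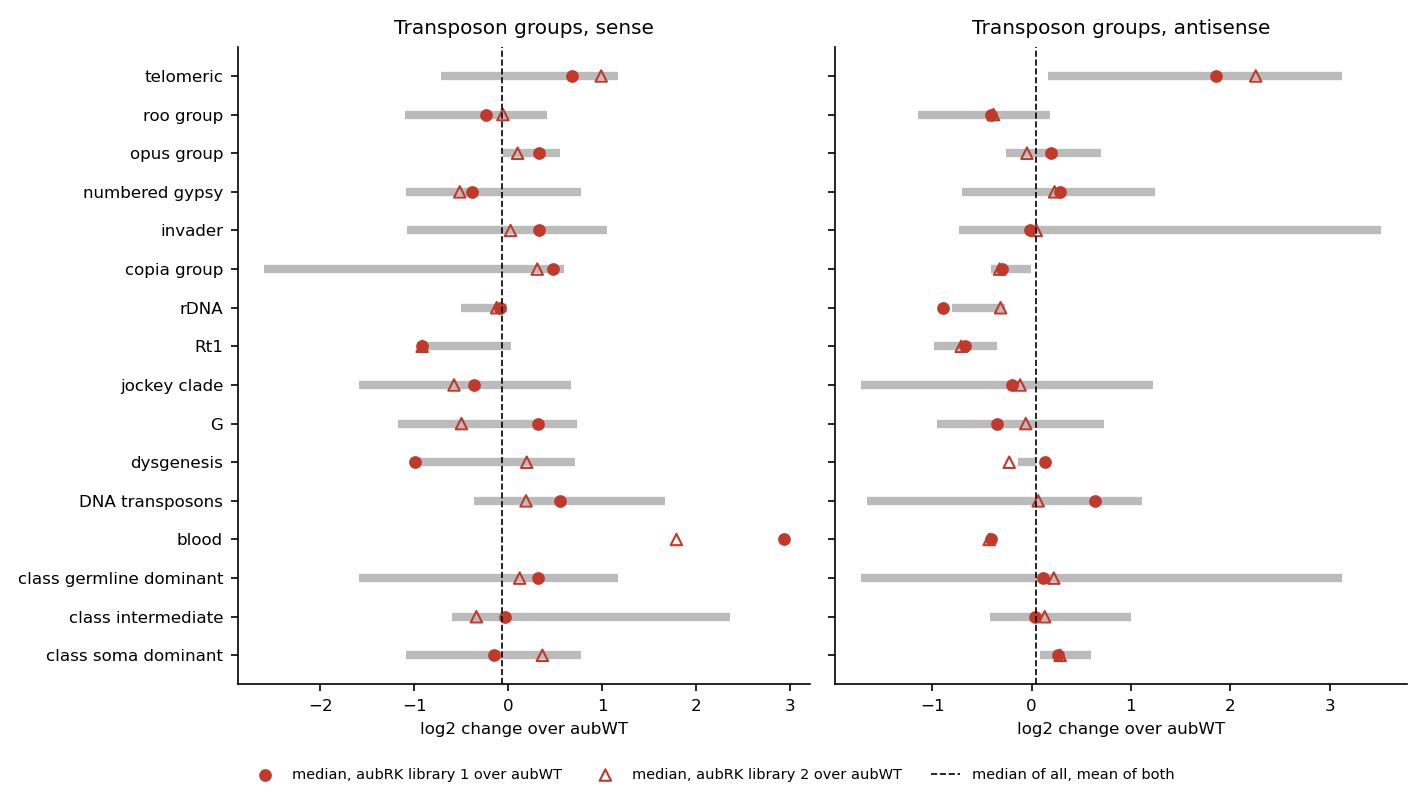
Log2 changes over aubWT by group of transposons. Filled circles are the group median in aubRK library 1 and open triangles that in aubRK library 2, grey bars span the lowest to the highest mean change of the members, and the dashed line is the median of all entries of that orientation, −0.07 in sense and 0.04 in antisense. The telomeric group lies to the right in antisense, and the Rt1 and rDNA groups lie to the left in antisense.

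LTR retrotransposons, which resemble retroviruses, contained changes in both directions. springer (FBgn0003490) sense piRNAs had the largest decrease of all entries kept, with 389 and 386 CPM in aubRK and 1625 CPM in aubWT, a change of −2.06 ± 0.01 (SD, n = 2; adjusted p by edgeR = 0.030). springer antisense piRNAs measured 4350 and 4067 CPM in aubRK and 6704 CPM in aubWT, a change of −0.67. The sense share of springer was accordingly 8.21 and 8.68% in aubRK and 19.5% in aubWT.

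PiRNAs of several other LTR elements were also kept and lower. rooA antisense piRNAs measured 1942 and 1558 CPM in aubRK and 3835 CPM in aubWT, and its sense piRNAs 348 and 264 CPM in aubRK and 651 CPM in aubWT. flea antisense piRNAs measured 538 and 605 CPM in aubRK and 1263 CPM in aubWT. Circe antisense piRNAs measured 2282 and 1933 CPM in aubRK and 4240 CPM in aubWT, and aurora-element antisense piRNAs 1587 and 1805 CPM in aubRK and 3511 CPM in aubWT. Both aubRK libraries were well below aubWT in each, and edgeR called Circe (adjusted p = 0.049) and aurora-element (adjusted p = 0.044) but neither rooA nor flea. Sense piRNAs of accord and invader6, and antisense piRNAs of 3S18, were also kept with changes of −1.07, −1.08 and −0.93.

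roo (FBgn0000155) was the most abundant transposon in every Piwi library. Its antisense piRNAs measured 81248 and 85279 CPM in aubRK and 73006 CPM in aubWT, a change of 0.19 that was kept and not called by edgeR, and −0.30 with identical reads counted once. Max-element, another member of the roo group, had antisense piRNAs of 23168 and 23634 CPM in aubRK and 30823 CPM in aubWT, a change of −0.40. Max-element sense piRNAs, at 16013 and 18079 CPM in aubRK and 18782 CPM in aubWT, and sense piRNAs of GATE, at 17474 and 16332 CPM in aubRK and 17501 CPM in aubWT, were among the 5 most abundant sense entries and were not kept. The roo group as a whole was near its aubWT share, at 13.3 and 13.7% in aubRK and 13.4% in aubWT.

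mdg1 (FBgn0002697), an LTR element of the gypsy superfamily, gained the largest part of the library. Its antisense piRNAs measured 30449 and 36440 CPM in aubRK and 16606 CPM in aubWT, a change of 1.00 ± 0.18 (SD, n = 2; adjusted p by edgeR = 0.044) and a gain of 1.68 points of the library. Its sense piRNAs were few and lower, at 578 and 555 CPM in aubRK and 819 CPM in aubWT. 297 antisense piRNAs measured 35455 and 29610 CPM in aubRK and 23461 CPM in aubWT, a change of 0.47 that was kept and not called. 412, with roo, R1A1-element, F-element and 297 among the 5 most abundant antisense entries, was not kept, with 35952 and 41071 CPM in aubRK and 35498 CPM in aubWT.

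blood (FBgn0000199), another LTR element, had the largest mean increase in sense share. Its sense piRNAs measured 17187 and 7785 CPM in aubRK and 2247 CPM in aubWT, a change of 2.36 ± 0.81 (SD, n = 2) that edgeR did not call (adjusted p = 0.071). The aubRK libraries differed by more than 2-fold from each other, and both lay above aubWT; aubRK library 2, with the adaptor of aubWT, gave a change of 1.79. blood antisense piRNAs measured 17661 and 17489 CPM in aubRK and 23493 CPM in aubWT, a change of −0.42. The sense share was 49.3 and 30.8% in aubRK and 8.73% in aubWT.

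The largest kept change belonged to invader5 antisense piRNAs and rested on few reads: 1440 and 21 reads in the aubRK libraries and 2 reads in aubWT, or 30.5 and 15.7 CPM in aubRK and 1.00 CPM in aubWT. The ratio over aubWT was 30.4 (95% interval 8.40 to 251) for aubRK library 1 and 15.6 (3.82 to 138) for aubRK library 2, where the intervals cover counting error only. edgeR did not call it (adjusted p = 0.12). Burdock sense piRNAs measured 6420 and 4891 CPM in aubRK and 2852 CPM in aubWT, and gypsy7 antisense piRNAs 878 and 614 CPM in aubRK and 310 CPM in aubWT. Both were kept and not called, with changes of 0.97 and 1.24.

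DNA transposons, which move by excision or copying without an RNA intermediate, were mostly represented by few reads. Of 16 tested in each orientation, 5 were kept and higher and 0 kept and lower in sense, where 23.0% and 24.6% of all entries were. In antisense 6 were kept and higher and 3 kept and lower, where 33.1% and 32.2% of all entries were, so that the share kept and higher was near that of all entries. The group medians in the aubRK libraries were 0.55 and 0.19 in sense and 0.64 and 0.07 in antisense, nearer to 0 in the library with the adaptor of aubWT. edgeR called 0 of the 16 entries in either orientation, with 0 sense and 3 antisense entries at an unadjusted p under 0.05 and the same counts called by DESeq2. Tc1 sense piRNAs measured 44.5 and 75.5 CPM in aubRK and 17.6 CPM in aubWT, from 2103 and 101 reads in aubRK and 35 in aubWT. Tc3 sense piRNAs measured 26.3 and 32.9 CPM in aubRK and 10.5 CPM in aubWT, and hopper antisense piRNAs 422 and 364 CPM in aubRK and 181 CPM in aubWT. The group as a whole took 1.79 and 1.54% of the aubRK libraries and 1.54% of the aubWT library, so the aubRK library with the adaptor of aubWT stood at the aubWT share.

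1360, a DNA transposon related to P-element and scattered through heterochromatin, is in no group fixed by name and was far more abundant. In antisense 1360 measured 10997 and 10845 CPM in aubRK and 6740 CPM in aubWT, and in sense 8837 and 8452 CPM in aubRK and 5003 CPM in aubWT. edgeR called both higher (adjusted p = 0.044 each), with changes of 0.70 and 0.79. FB, the foldback element with long inverted repeats, had sense piRNAs of 141 and 170 CPM in aubRK and 76.8 CPM in aubWT, and INE-1, a short element without coding capacity, had antisense piRNAs of 218 and 172 CPM in aubRK and 85.8 CPM in aubWT. Both were kept and not called.

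The soma dominant class holds gypsy, gypsy5, gypsy10, gtwin, Tabor and ZAM, LTR elements that can be active in follicle cells and are silenced there by Piwi piRNAs from the flamenco locus. Their piRNAs are almost entirely antisense, with a sense share of 0.969 and 1.10% in aubRK and 1.11% in aubWT. In antisense 4 of 6 were kept and higher and 0 kept and lower, against 33.1% and 32.2% of all antisense entries, with a median change of 0.28, and edgeR called 0 of them, with 3 at an unadjusted p under 0.05 and 3 called by DESeq2. gypsy10 antisense piRNAs measured 15432 and 15439 CPM in aubRK and 12531 CPM in aubWT, gypsy5 antisense piRNAs 9632 and 10228 CPM in aubRK and 6556 CPM in aubWT. gtwin antisense piRNAs measured 9303 and 9570 CPM in aubRK and 7903 CPM in aubWT, and ZAM antisense piRNAs 4493 and 4241 CPM in aubRK and 3097 CPM in aubWT. These 4 were above aubWT in both aubRK libraries by changes of 0.26 to 0.60.

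The other members of the class were not kept in antisense. Tabor antisense piRNAs measured 13915 and 15767 CPM in aubRK and 13119 CPM in aubWT, and gypsy antisense piRNAs 6150 and 5551 CPM in aubRK and 5502 CPM in aubWT. The few sense piRNAs of the class were kept and higher for gypsy and gypsy10 and kept and lower for gypsy5, at 28.7 and 22.4 CPM in aubRK and 55.2 CPM in aubWT. gypsy10 antisense changed by −0.10 with identical reads counted once.

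The class as a whole took 5.95 and 6.15% of the aubRK libraries and 4.93% of the aubWT library, the intermediate class 19.3 and 19.5% in aubRK and 16.8% in aubWT, and the germline dominant class 38.8 and 39.6% in aubRK and 37.5% in aubWT. Transposons without a class made up the difference, with 36.0 and 34.8% in aubRK and 40.7% in aubWT. All libraries are bulk ovary, where fewer cells of a type and less RNA per cell cannot be told apart, and shares of 1 library sum to a whole, so that a rise of follicle cell piRNAs and a fall of germline piRNAs give the same shares.

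Orientation was examined per transposon, since sense piRNAs can come from transposon transcripts and antisense piRNAs come mostly from piRNA clusters. The source of the piRNAs was not tested. Over all transposons the sense share was 26.5% (95% Wilson interval 26.52 to 26.55) and 24.7% (24.65 to 24.80) in the aubRK libraries and 26.7% (26.66 to 26.78) in aubWT. The intervals cover counting error only, and read copies of aubRK library 1 without a barcode are not independent molecules. The mean of aubRK was 25.6 ± 1.28% (SD, n = 2), 1.09 points under aubWT and within the spread of the aubRK pair. With identical reads counted once the mean of aubRK was 3.14 points above aubWT, a setting in which the median change of all entries was 0.36 in place of −0.01.

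Among the 116 transposons with at least 50 reads in each Piwi library, the sense share of 57 (49.1%) differed from aubWT in both aubRK libraries by more than these differed from each other, 21 higher and 36 lower in aubRK. By more than 10 points 9 were higher and 10 lower. blood stood at one end and TART-B at the other, with a TART-B sense share of 31.4 and 25.5% in aubRK and 60.8% in aubWT. The sense share of 3S18 was 72.8 and 70.3% in aubRK and 54.9% in aubWT, with lower antisense piRNAs and sense piRNAs near the aubWT level. The sense share of Fw3 was 34.9 and 36.6% in aubRK and 63.4% in aubWT, from 7164 and 145 reads in aubRK and 268 in aubWT. Tc1 and G7 had large mean differences but were not among the 57. For Tc1 the smaller difference from aubWT, 11.2 points, was under the 12.8 points between the aubRK libraries. For G7 the sense share was 58.4 and 24.7% in aubRK and 27.3% in aubWT.

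**Figure D4:**
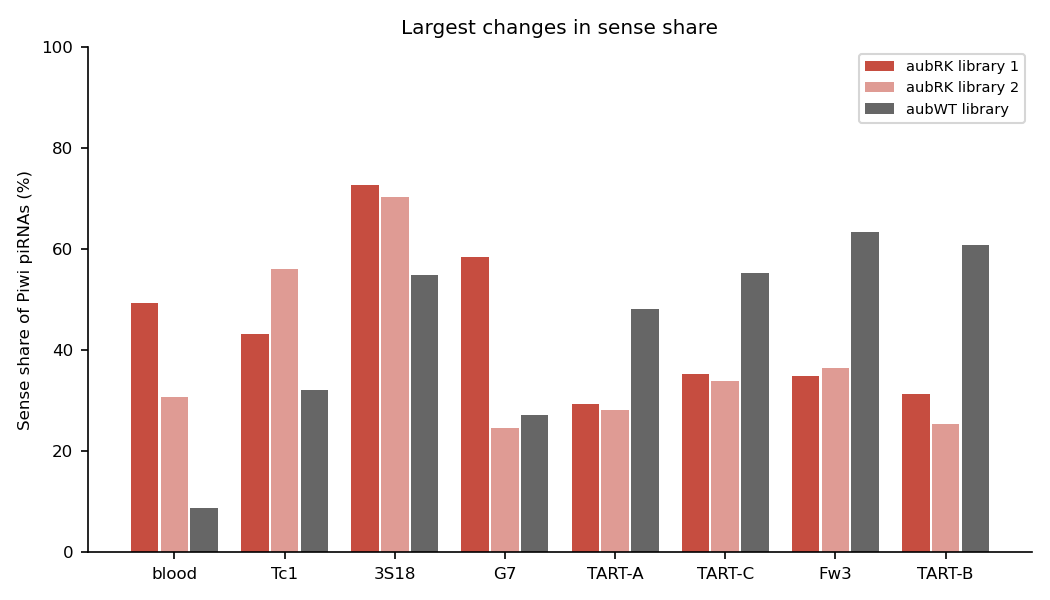
Sense share of Piwi piRNAs, in percent of the reads of a transposon, for the 4 transposons with the largest mean increase and the 4 with the largest mean decrease. Dark red bars are aubRK library 1, light red bars aubRK library 2 and grey bars the aubWT library, with 1 library to a bar. Both aubRK bars are far under the grey bar for the TART elements and Fw3 and above it for blood, Tc1 and 3S18, whereas those of G7 lie on both sides of it.

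Set by transposon, 17 were kept and higher in both orientations, among them roo, F-element, Doc, 1360, opus, Burdock, Cr1a and the TART elements, and 20 were kept and lower in both, among them X-element, Rt1a, Rt1b, R1A1-element, springer, rooA, flea, G2, G6 and I-element. Opposite directions were rare: blood, 3S18, copia and Dm88 were kept and higher in sense and lower in antisense, and HeT-A, TAHRE, gypsy5 and mdg1 were kept and lower in sense and higher in antisense. In 47 transposons only 1 orientation was kept, in 34 of these the antisense one. Neither was kept in 29.

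The rule divides a continuous range. Just inside it lay Burdock antisense, with a change of 0.04 that exceeded the difference between the aubRK libraries by 0.018 and became −0.01 under TMM normalization, and TAHRE antisense, with an excess of 0.005. Just outside lay accord antisense, with a change of −0.22, and Doc3-element antisense, with a change of −0.09, each 0.002 short of the difference.

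Aub piRNAs of the same genotypes give a readout from other libraries, 1 for each genotype, both made without a barcode. Across transposons the Piwi change and the Aub change had a Spearman correlation of 0.534 in sense (n = 121) and 0.667 in antisense (n = 120), and a Pearson correlation of 0.521 and 0.685. Transposons are not independent replicates and share base composition and multiply mapped reads, so this is a description. The median Aub change of the Piwi entries kept and higher was 0.73 in sense and 0.48 in antisense, that of the entries kept and lower −0.30 and −0.49, and that of all entries 0.11 and 0.13. Above the Aub median lay 21 of 28 sense and 32 of 40 antisense entries that were higher in Piwi. Below it lay 24 of 30 sense and 32 of 39 antisense entries that were lower in Piwi.

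Most of the largest kept changes in Piwi had the same sign in Aub. TART-A antisense Aub piRNAs measured 7225 CPM in aubRK and 732 CPM in aubWT, and those of TART-B 389 CPM in aubRK and 14.4 CPM in aubWT. blood sense Aub piRNAs measured 30734 CPM in aubRK and 5789 CPM in aubWT, with antisense at 4441 CPM in aubRK and 12462 CPM in aubWT. X-element antisense Aub piRNAs measured 5250 CPM in aubRK and 13431 CPM in aubWT, and springer sense Aub piRNAs 189 CPM in aubRK and 632 CPM in aubWT. Tc1 sense piRNAs went the other way in Aub, at 29.6 CPM in aubRK and 56.1 CPM in aubWT, and roo antisense Aub piRNAs were at 104407 CPM in aubRK and 136825 CPM in aubWT. The sense changes of FB and gypsy5 also had the opposite sign in Aub, at −0.03 and 0.13.

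**Figure D5:**
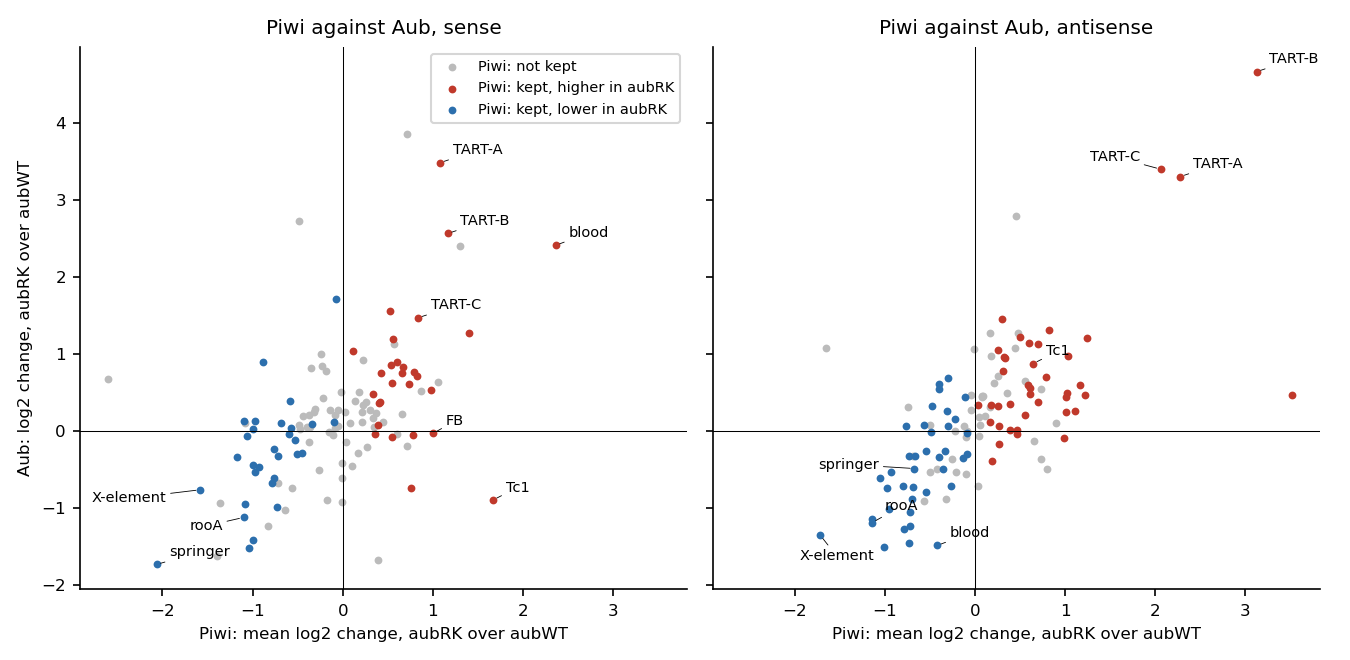
Change of Piwi piRNAs against change of Aub piRNAs for transposons with a mean of at least 10 CPM in both. The x axis is the mean log2 change of the Piwi aubRK libraries over aubWT and the y axis the log2 change of the 1 Aub aubRK library over the 1 Aub aubWT library, with red and blue points kept in Piwi as higher and lower in aubRK and grey points not kept. The Spearman correlation was 0.534 in sense and 0.667 in antisense, and the TART elements are high on both axes.

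Ago3 piRNAs were less alike. The Spearman correlation of the Piwi and Ago3 changes was 0.377 in sense (n = 121) and 0.350 in antisense (n = 120), and the median Ago3 change was 0.07 in sense and 1.08 in antisense over all entries. Genotype and adaptor change together between the Ago3 libraries and cannot be told apart, and the Ago3 aubRK library had the Piwi-like composition given above, whose part in the Ago3 changes was not tested. For TART-A antisense Ago3 piRNAs measured 9059 CPM in aubRK, against 799 CPM in aubWT, and the aubRK value was near that of Piwi.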

How the data were processed

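Small RNAs bound to Piwi were sequenced from 2 aubRK samples and 1 aubWT sample; the Aub and Ago3 libraries of both genotypes entered as a second readout, and 5 libraries of other genotypes were not used here. The authors trimmed adaptors with Cutadapt (2.3 in the submitters' processing notes), collapsed barcoded reads, aligned end to end with STAR (2.4.2a) to consensus transposons, keeping best-scoring alignments to several elements, and deposited counts of read copies and of distinct entries for each transposon and orientation, without normalization. The meaning of both counts was taken from the column names and values. Copies without a barcode include PCR duplicates, and entries merge identical molecules in the libraries without a barcode alone. In Piwi aubRK library 2 and Piwi aubWT both counts were equal on every transposon. The transposon classes are the authors' own, and the deposited files hold no comparisons by the authors.

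Read copies were scaled to the library total on transposons (CPM), filtered at a mean of 10 CPM over the 3 Piwi libraries, and compared as log2(CPM + 1) for each aubRK library over aubWT. edgeR 4.0.16 (glmQLFit and glmQLFTest) and DESeq2 1.42.0 ran in R 4.3.3, the rest in Python 3.11.15; the fits were tested on simulated data. Replicates were compared before averaging, and p-values were adjusted over the 243 entries that passed the filter. Ratios of few reads have exact 95% intervals.

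Named were, in each orientation, the 8 kept transposons that were most increased and the 8 most decreased in aubRK, the 5 most abundant, the telomeric and soma dominant members, the nearest neighbours of the rule, and the 4 largest changes in sense share each way. Members of the groups, entries called by edgeR and the largest movers of library share were named after their values were seen. The members and groups were chosen with earlier results of these data known. Alternatives were TMM and DESeq2 size factors, each orientation scaled to its own total, a pseudocount of 10 CPM, no filter or 100 CPM, leaving out each aubRK library, entries, the mean change in the rule, DESeq2's Wald test and the median over transposons. Sequences were not used here.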

Additional observations from a re-analysis of the deposited data

Results flagged for a closer look

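Among the 8 largest kept changes each way in each orientation, 2 sense entries had changes opposite to Piwi in both Aub and Ago3. The opposite changes were near 0 for FB in both proteins and for gypsy5 in Aub. Neither Piwi change was called by edgeR's quasi-likelihood test (adjusted p = 0.26 for FB and 0.38 for gypsy5). Smaller kept changes were also opposed in both proteins, such as Fw3 sense, at −0.88 in Piwi, 0.90 in Aub and 0.50 in Ago3. FB sense piRNAs had a mean log2 change of 1.00 in Piwi (1.004 before rounding), −0.03 in Aub and −0.10 in Ago3. gypsy5 sense piRNAs had a mean log2 change of −1.09 in Piwi (−1.0917 before rounding), 0.13 in Aub and 0.79 in Ago3. FB measured 141 and 170 CPM in Piwi aubRK and 76.8 CPM in Piwi aubWT, from 228 reads in aubRK library 2 and 153 in aubWT. gypsy5 measured 28.7 and 22.4 CPM in Piwi aubRK and 55.2 CPM in Piwi aubWT, from 30 reads in aubRK library 2 and 110 in aubWT. The difference between the proteins was not tested, Aub and Ago3 have 1 library for each genotype, and the Ago3 aubRK library resembled a Piwi library. Groups of 4 or more samples did not occur, so no sample was examined for lying far from its group.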

How the results depend on the processing

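The largest dependence was on the count. With identical reads counted once in place of read copies, which changes aubRK library 1 alone among the Piwi libraries, 16 sense entries were kept and higher and 7 kept and lower, against 28 and 30 with read copies, and 15 antisense entries were kept and higher and 12 kept and lower, against 40 and 39. Of these 50 entries 44 were kept in the same direction with read copies. Over 2-fold were 52 higher and 6 lower, edgeR called 2 higher and 0 lower, and the difference in sense share was 3.14 points. The calls by edgeR, 8 higher and 12 lower, became 16 and 42 under TMM normalization, 13 and 24 with no filter, 17 and 28 from a mean of 100 CPM upward, and 32 and 43 by DESeq2's Wald test. The single changes that reversed were Burdock antisense, at −0.00625 under TMM normalization, and gypsy10 antisense, at −0.10, and roo antisense, at −0.30, with identical reads counted once. Of the named changes recomputed under the alternatives, 271 values stayed within 1 SD of the aubRK pair and 69 moved further without a change of sign. The 271 include all 49 values for each aubRK library left out, which must lie within 1 SD because the SD comes from the same pair. With identical reads counted once, 8 stayed within 1 SD, 39 moved further and 2 reversed. Leaving out each aubRK library in turn gave 15 to 27 entries higher and 14 to 25 lower over 2-fold, and differences in sense share from −1.995 to −0.187 points. Without 1 aubRK library the rule and edgeR give no value, as no difference between replicates and no residual degree of freedom is left. Under TMM normalization 128 of 137 kept entries were kept in the same direction, under DESeq2 size factors 117, and with each orientation scaled to its own total 129. No paired analysis was possible because the groups share only 1 replicate number. Below 100 CPM the spread between the aubRK libraries limits what can be seen. TART in both orientations, X-element in both, Rt1b antisense and springer sense kept their directions under every alternative in which they were recomputed. Leaving out an aubRK library could not turn the direction of a kept entry.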
